A study of Rattus norvegicus with 12 samples.

Results

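The cAMP response element-binding protein (CREB) family and its coactivators were followed in the striatum of 12 rats labelled as after methamphetamine (MA) self-administration. Members were taken by gene symbol from the deposited count table. Of 10 listed genes, 8 had a row among the 17337 genes of the table, namely *Creb1*, *Crem*, *Atf1*, *Atf2*, *Atf4*, *Crebbp*, *Crtc1* and *Crtc2*. *Ep300* and *Crtc3* were not analysed here.

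The labels give wild-type genotype and MA treatment for every rat. By the study's methods, its animals were male Sprague–Dawley rats, 8 weeks old when training began. By the labels, every rat in all 3 groups, comparison rats included, took MA during 16 days of self-administration. No group labelled drug-free was analysed here. MA12 (n = 4) and MA24 (n = 4) rats were killed 12 h and 24 h after the last session, and were drawn at random from rats with stable lever pressing. The third group (n = 4) is labelled non-addicted, after the same 16 days of MA. The methods describe a saline self-administration group and MA groups without naming this one. Whether it is one of them is not given in the sources used here. What set these rats apart, and the time from their last session, are not given in the sources used here. Each library is 1 rat, and the tissue is bulk striatum, in which fewer cells of a type and less RNA per cell cannot be told apart.

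CREB1 is a transcription factor that binds the cAMP response element (CRE) in promoters. Phosphorylation by kinases downstream of cAMP, calcium or growth factor signals lets it recruit the acetyltransferase CBP (encoded by *Crebbp*), while CRTC proteins move into the nucleus when dephosphorylated and bind CREB through its leucine zipper. In the striatum, dopamine D1 receptor signaling and psychostimulants activate CREB, and the opioid peptide gene *Pdyn* is a well-known CREB target. Much of this regulation acts on protein, by phosphorylation and localization, which mRNA levels do not show.

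Total counts per rat were 17908962 to 23850284. Striatal projection neuron markers (10 of 10 in the table) summed to 14228 to 17692 CPM (counts scaled to library size), while cortical markers reached at most 22.1 CPM and thalamic and hypothalamic markers at most 83.2 CPM. The numbers of all 4 MA24 rats and of 2 of the 4 MA12 rats end in N, and those of the non-addicted rats do not. What N stands for is not given in the sources used here. If sessions were held at one clock hour, which is not stated, hours of abstinence and time of day at death cannot be told apart. Below, a gene was differentially expressed (DEG) when its fold change (FC) reached 1.5 and its adjusted p from edgeR's quasi-likelihood test was under 0.05. Levels are log2 CPM, and a log2FC is a difference between groups.

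*Creb1* was the member that passed this test in MA24 vs. MA12, and its mRNA was lower in MA24. MA12 rats 21, 31, 4N and 7N had 263, 234, 179 and 191 counts of *Creb1*, or 3.48, 3.30, 3.09 and 3.44 log2 CPM. MA24 rats 9N, 14N, 15N and 16N had 168, 72, 88 and 122 counts, or 2.87, 1.87, 2.21 and 2.71 log2 CPM. All 4 MA24 rats lay below all 4 MA12 rats. The mean level was 3.33 ± 0.18 log2 CPM in MA12 and 2.41 ± 0.46 in MA24 (SD, n = 4 each), so that MA24 also had the wider spread. The log2FC was -0.88 (SE 0.21, edgeR adjusted p = 0.0248), and the exact permutation test of the levels gave p = 0.0286, the smallest that 4 against 4 rats allow (two-sided, 1 of 24 unadjusted tests on members).

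Non-addicted rats were between the other groups in *Creb1*. Rats 9, 11, 12 and 13 had 112, 190, 214 and 150 counts, or 2.57, 3.24, 3.15 and 2.98 log2 CPM, with a mean of 2.99 ± 0.30 (SD, n = 4). They overlapped both groups, and neither neighbour in the order MA12, non-addicted, MA24 could be separated from them (edgeR adjusted p = 0.456 vs. MA12 and 0.237 vs. MA24). The log2FC was -0.34 (SE 0.18) vs. MA12 and 0.54 (SE 0.23) vs. MA24.

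**Figure D1:**
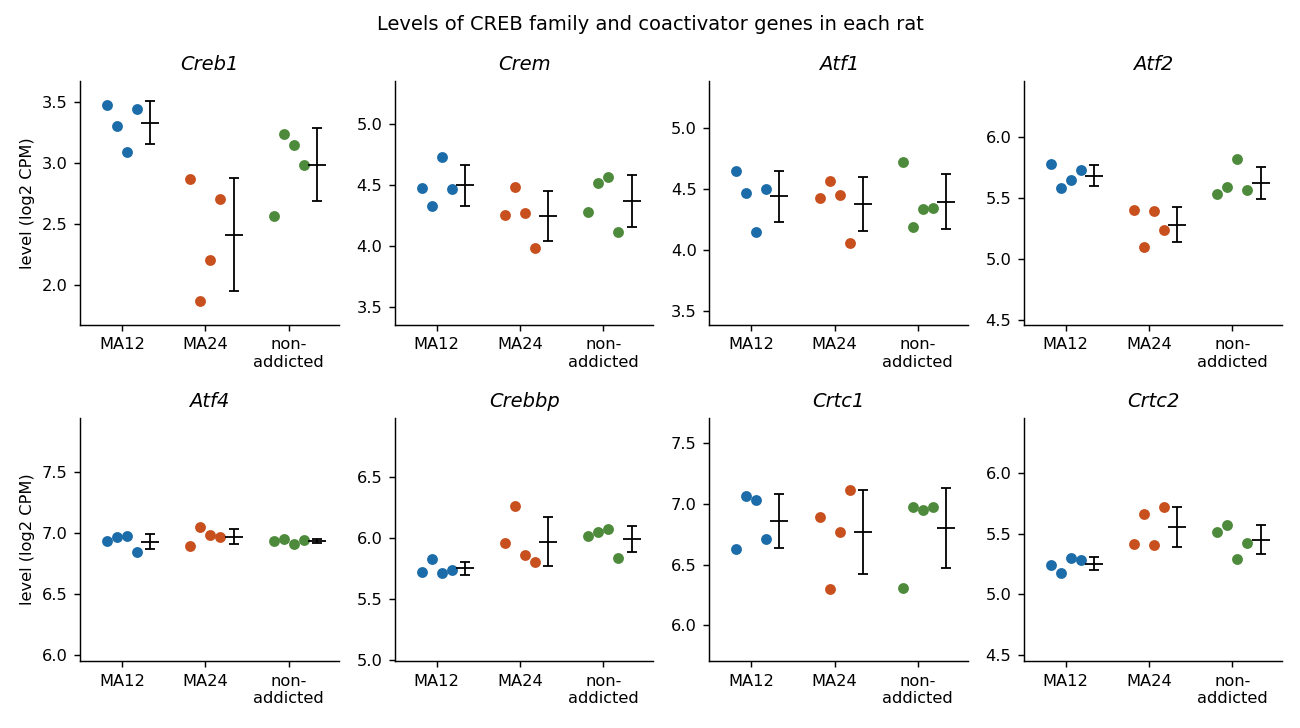
Level (log2 CPM) of the 8 measured genes in each rat (points), with group mean ± SD (bars, n = 4). Each panel spans 2 log2 units. *Creb1* and *Atf2* are lower in all MA24 rats than in all MA12 rats, *Crtc2* is higher, and *Atf4* hardly varies.

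*Crem* and *Atf1* encode the closest relatives of CREB1, with a similar DNA-binding domain, and neither passed the test in any comparison. The levels of *Crem* ranged from 4.32 to 4.73 log2 CPM in MA12, 3.98 to 4.48 in MA24 and 4.11 to 4.57 in non-addicted rats, so the 3 groups overlapped. The MA24 vs. MA12 log2FC of *Crem* was -0.25 (SE 0.13, edgeR adjusted p = 0.264). *Crem* also makes short repressors from an internal start, known as ICER, and counts per gene do not separate these from the longer forms. *Atf1* ranged from 4.15 to 4.65 log2 CPM in MA12, 4.05 to 4.56 in MA24 and 4.19 to 4.72 in non-addicted rats. For *Atf1*, MA24 and MA12 differed by a log2FC of -0.06 (SE 0.14, edgeR adjusted p = 0.814).

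*Atf2* encodes a bZIP factor activated by stress kinases such as JNK and p38, and its level was lower in MA24 without reaching the FC limit. The 4 MA12 rats, in the order given for *Creb1*, had 1302, 1147, 1065 and 940 counts of *Atf2*, or 5.78, 5.59, 5.65 and 5.73 log2 CPM. In the MA24 rats these were 980, 694, 819 and 713 counts, or 5.40, 5.10, 5.40 and 5.24 log2 CPM. In the non-addicted rats they were 889, 974, 1379 and 910 counts, or 5.54, 5.59, 5.82 and 5.57 log2 CPM. Every MA24 rat was below every rat of both other groups. The log2FC in MA24 vs. MA12 was -0.40 (SE 0.10, edgeR adjusted p = 0.0313), which passes the p limit alone. That adjusted p rose above the limit without rat 21 (0.105), 7N (0.0583), 14N (0.0881) or 16N (0.0730), among rats numbered with N (0.175) and with the kind of number as covariate (0.142), with a log2FC of -0.41 to -0.34 in these edgeR fits. In non-addicted vs. MA24 the log2FC was 0.34 (SE 0.11, edgeR adjusted p = 0.136), with p = 0.0286 in the exact permutation test. Non-addicted and MA12 rats overlapped (log2FC -0.06, SE 0.10).

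*Atf4* encodes the main effector of the integrated stress response, which is controlled largely at translation. Its level lay between 6.84 and 7.04 log2 CPM in all 12 rats. The variance filter removed *Atf4* from each comparison. In the fit without that filter, its log2FC was 0.04 (SE 0.07) in MA24 vs. MA12, -0.00 (SE 0.06) in non-addicted vs. MA12 and -0.04 (SE 0.07) in non-addicted vs. MA24.

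Among coactivators, *Crtc2* was higher in all MA24 rats than in all MA12 rats. *Crtc2* counts were 897, 865, 835 and 688 in MA12, or 5.24, 5.18, 5.30 and 5.28 log2 CPM. They were 989, 1024, 824 and 998 in MA24, or 5.41, 5.66, 5.41 and 5.72 log2 CPM. The groups did not overlap, but the log2FC of 0.31 (SE 0.10) did not pass the test (edgeR adjusted p = 0.0865, exact permutation p = 0.0286). In non-addicted rats *Crtc2* stood at 5.51, 5.57, 5.29 and 5.42 log2 CPM, with 1 rat inside the MA12 range (log2FC vs. MA12 0.20, SE 0.10, edgeR adjusted p = 0.419).

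*Crebbp*, which encodes CBP, had its lowest mean level in MA12. Its counts there were 1254, 1360, 1116 and 946, or 5.72, 5.83, 5.72 and 5.74 log2 CPM. MA24 rats had 1447, 1553, 1133 and 1056 counts, or 5.96, 6.26, 5.87 and 5.80 log2 CPM, and rat 16N overlapped MA12. Non-addicted rats had 1240, 1341, 1640 and 1094 counts, or 6.02, 6.05, 6.07 and 5.83 log2 CPM, all above MA12, with rat 13 just above it. The log2FC was 0.23 (SE 0.11, edgeR adjusted p = 0.203) in MA24 vs. MA12 and 0.24 (SE 0.09, edgeR adjusted p = 0.292) in non-addicted vs. MA12. Neither passed, although the exact permutation test gave p = 0.0286 for the latter.

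*Crtc1*, the CRTC form known for its expression in neurons, varied more within groups than between them. It ranged from 6.63 to 7.06 log2 CPM in MA12, 6.30 to 7.11 in MA24 and 6.30 to 6.97 in non-addicted rats. Rat 14N was lowest in MA24 and rat 9 in the non-addicted group, and both rats also had the lowest *Creb1* of their groups. The log2FC of *Crtc1* was -0.07 (SE 0.14) in MA24 vs. MA12, -0.05 (SE 0.14) in non-addicted vs. MA12 and 0.02 (SE 0.16) in non-addicted vs. MA24. None passed the test.

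**Figure D2:**
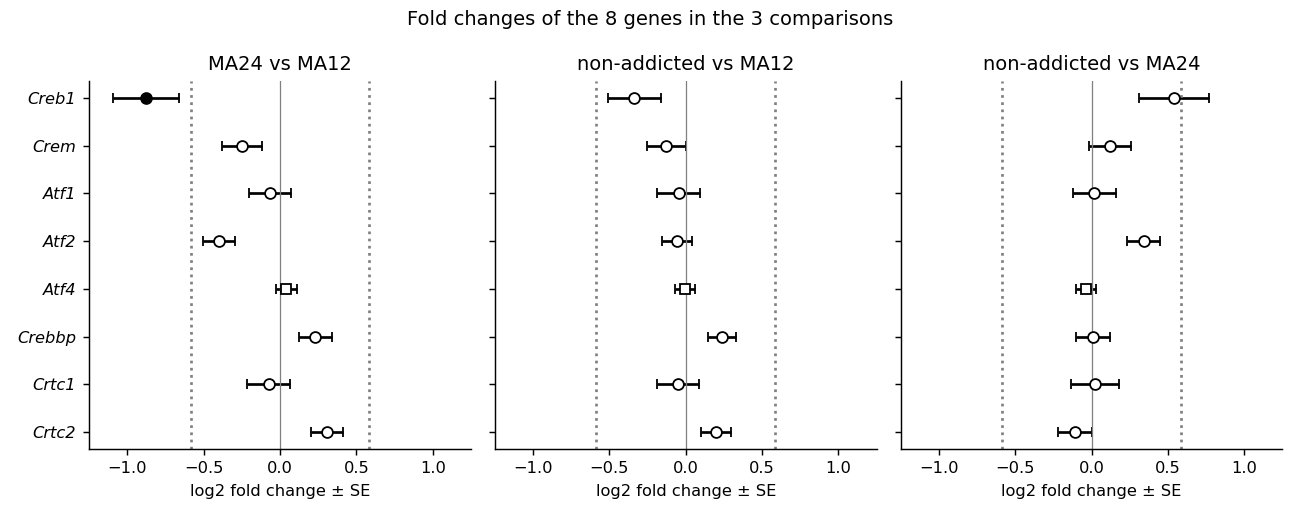
Log2 fold change ± SE of the 8 genes in each comparison. The filled point passed the test, open points did not, squares (*Atf4*) come from the fit without the variance filter, and dotted lines mark an FC of 1.5. The 3 comparisons share rats.

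Counted over the family, 1 of 7 tested members was a DEG in MA24 vs. MA12, where 2.45% of 10754 tested genes were. By adjusted p alone, 2 of 7 members passed (*Creb1* and *Atf2*), against 5.16% of tested genes, and 0 passed without rat 21 or without rat 14N. Groups did not overlap for 3 of 7 members (*Creb1*, *Atf2* and *Crtc2*), against 15.6% of tested genes. In non-addicted vs. MA12 no member was a DEG, against 0.251% of 10758 genes. There, 1 of 7 members (*Crebbp*) was at an unadjusted edgeR p under 0.05, against 12.3% of tested genes. DESeq2 called 0 members among its 72 DEGs, and 1 member did not overlap, against 7.1% of tested genes. In non-addicted vs. MA24 no member was a DEG, against 0.456% of 10744 genes. There, 2 of 7 members (*Creb1* and *Atf2*) were at an unadjusted edgeR p under 0.05, against 17.5% of tested genes. DESeq2 called 0 members among its 116 DEGs, and 1 member (*Atf2*) did not overlap, against 10% of tested genes. With so few members, chosen with the *Creb1* result in MA24 vs. MA12 known, these shares are descriptions. Directions were mixed. In MA24 vs. MA12, 5 of 7 members had a negative log2FC, against 51.7% of all tested genes. The members' median was -0.07, beside -0.02 over all tested genes.

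Library composition is given beside the *Creb1* levels. Genes of cytosolic ribosomal proteins (84) and of oxidative phosphorylation (OXPHOS) subunits (79), whose short transcripts are abundant in every cell, together took 3.90% to 4.22% of counts in MA12, 3.98% to 4.71% in MA24 and 3.85% to 4.42% in non-addicted rats. The share itself did not separate MA24 from MA12 (exact permutation test, two-sided, p = 0.143). Rat 14N had the highest share (4.71%) and the lowest *Creb1* of all rats, and rat 9 had the highest share and lowest *Creb1* of the non-addicted group. Rat 9N, the highest MA24 rat in *Creb1* (2.87 log2 CPM), had the lowest share of MA24 (3.98%). In MA12, rat 31 had the highest share (4.22%) with 3.30 log2 CPM of *Creb1*, and rat 4N had the lowest *Creb1* (3.09) with a share of 4.06%, so the order of shares was not that of levels there. With this share as a covariate, an alternative added after seeing the data, the log2FC of *Creb1* in MA24 vs. MA12 was -0.58 (SE 0.23, edgeR adjusted p = 0.285) and that of *Atf2* was -0.29 (SE 0.12, edgeR adjusted p = 0.307), and 5 genes instead of 264 were DEGs in all. Whether composition has a part in the lower *Creb1* was not tested.

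**Figure D3:**
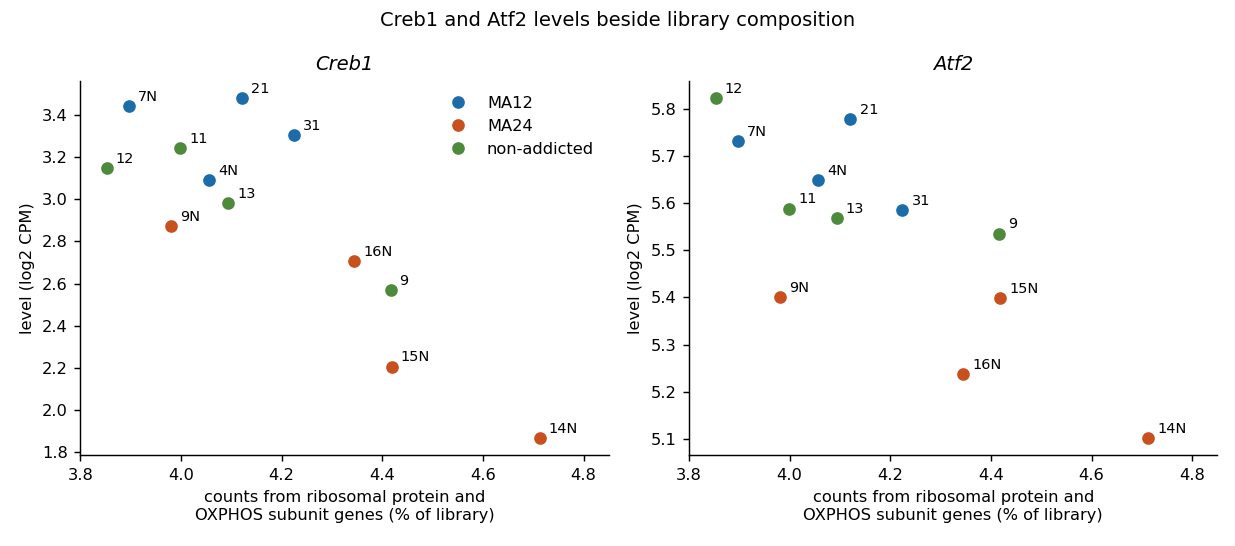
Level (log2 CPM) of *Creb1* and *Atf2* in each rat, named by its number, against the share of its counts (%) from 163 ribosomal protein and OXPHOS subunit genes. Rat 14N, at 4.71%, is lowest in both genes, and shares of MA12 (3.90% to 4.22%) and MA24 (3.98% to 4.71%) overlap. A part of composition in the levels was not tested.

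Other values also differed in MA24 vs. MA12. Of 10 tested transcripts known to be kept in the nucleus, 9 had a positive log2FC (median 0.28, beside -0.02 over all tested genes) and none was a DEG. The list was likewise positive for 9 of 9 tested in non-addicted vs. MA12 (median 0.30), and for 5 of 9 in non-addicted vs. MA24 (median 0.01). Summed, these transcripts were at 1112 to 1567 CPM in MA12, 1411 to 1686 in MA24 and 1422 to 1756 in non-addicted rats, with overlap. Thalamic and hypothalamic markers summed to 29.9 to 65.5 CPM in MA12 and 24.7 to 29.0 CPM in MA24, without overlap. Among them *Prkcd*, a thalamic kinase marker, was the 1 DEG of 5 tested (log2FC -0.94, SE 0.20, edgeR adjusted p = 0.0131), and *Pmch* had no count in any rat. *Prkcd* is itself part of the thalamic and hypothalamic sum. Its levels overlapped, at 4.27 to 5.66 log2 CPM in MA12 and 4.03 to 4.33 in MA24. Of 6 interneuron markers *Nos1*, which marks the nitric oxide-producing interneurons, was a DEG (log2FC -0.76, SE 0.21, edgeR adjusted p = 0.0434), while the summed list lay at 311 to 360 CPM in MA12 and 326 to 376 in MA24. *Nos1* levels overlapped too, at 4.70 to 5.37 log2 CPM in MA12 and 3.39 to 4.86 in MA24. The *Nos1* call was lost under 14 of 18 alternatives, and that of *Prkcd* under 4. Over all tested genes, 2.45% were DEGs. No other marker list had a DEG in this comparison, and projection neuron sums overlapped. The part of these values in the *Creb1* result was not tested.

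The *Creb1* call did not hold without some single rats, or in the 2 fits by kind of rat number. It was lost without MA12 rat 21 (log2FC -0.82, edgeR adjusted p = 0.0744), without MA24 rat 14N (-0.72, 0.0626) and without MA24 rat 15N (-0.80, 0.0695). Among rats numbered with N (2 MA12 and 4 MA24) the log2FC was -0.81 (SE 0.27, edgeR adjusted p = 0.127), and with the kind of number as a covariate it was -0.82 (SE 0.26, edgeR adjusted p = 0.139). The direction was negative in every fit run.

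**Figure D4:**
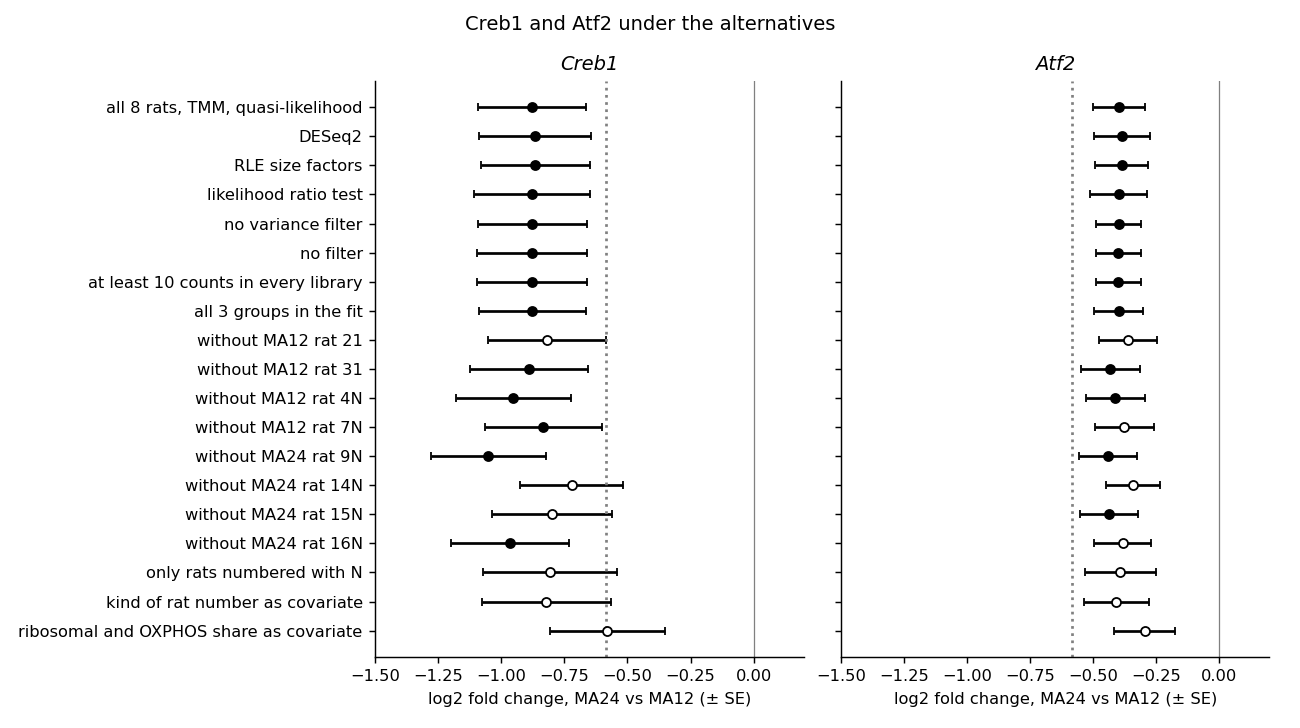
Log2 fold change ± SE of *Creb1* and *Atf2* in MA24 vs. MA12 with all 8 rats and under each alternative. Filled points have an adjusted p under 0.05, and the dotted line marks an FC of 1.5. All estimates are negative, from -1.05 to -0.58 for *Creb1*.

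Around CREB phosphorylation, 2 of 17 tested genes of kinases and kinase subunits were lower DEGs in MA24 vs. MA12, and none was higher. Over all tested genes 2.45% were DEGs, 185 of them lower and 79 higher. *Gsk3b* encodes glycogen synthase kinase 3 beta, which phosphorylates CREB after another kinase has primed it. Its levels were 5.90, 6.12, 6.03 and 5.97 log2 CPM in MA12 and 5.75, 4.74, 5.56 and 5.27 in MA24, without overlap (log2FC -0.63, SE 0.15, edgeR adjusted p = 0.0236). *Prkar2a*, a regulatory subunit of the cAMP-dependent protein kinase, stood at 4.72, 4.57, 4.42 and 4.51 log2 CPM in MA12 and at 4.09, 3.67, 3.65 and 4.34 in MA24 (log2FC -0.59, SE 0.15, edgeR adjusted p = 0.0276). These groups did not overlap either, and rat 16N came nearest to MA12. The list had a median log2FC of -0.10, beside -0.02 over all tested genes, and kinase activity was not measured. In non-addicted vs. MA12 and vs. MA24, 0 of 18 and 0 of 13 tested genes of this list were DEGs. Over all tested genes, 0.251% and 0.456% were.

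Of 7 tested regulators of CRTC nuclear entry, such as salt-inducible kinases, calcineurin subunits or 14-3-3 proteins, none was a DEG in MA24 vs. MA12 (median log2FC -0.15, from -0.44 to 0.21). Over all tested genes 2.45% were. None of 8 and none of 9 passed in non-addicted vs. MA12 and vs. MA24, against 0.251% and 0.456% of all tested genes. Among other acetyltransferases and partners of CBP, 1 of 10 tested was a DEG in MA24 vs. MA12, against 2.45% of all tested genes. The DEG was *Ncoa2*, a nuclear receptor coactivator that binds CBP. Its levels were 5.46, 5.51, 5.42 and 5.11 log2 CPM in MA12 and 5.0, 4.18, 4.66 and 4.87 in MA24, again with all MA24 rats lower (log2FC -0.68, SE 0.14, edgeR adjusted p = 0.0144). None of 9 and none of 8 passed in non-addicted vs. MA12 and vs. MA24, against the same 0.251% and 0.456%.

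Of 12 tested CREB and ATF relatives outside the member list, *Creb5* was the 1 DEG in MA24 vs. MA12, against 2.45% of all tested genes. *Creb5* encodes a CRE-binding factor close to ATF2. MA12 rats had 153, 169, 122 and 74 counts, or 2.71, 2.84, 2.54 and 2.09 log2 CPM. MA24 rats had 90, 31, 49 and 28 counts, or 1.99, 0.70, 1.39 and 0.65 log2 CPM, all below MA12 (log2FC -1.31, SE 0.30, edgeR adjusted p = 0.0186). The list's median log2FC was -0.02. None of 11 tested relatives passed in non-addicted vs. MA12 or vs. MA24, against 0.251% and 0.456% of all tested genes. The *Creb5* levels of non-addicted rats, 1.09 to 1.98 log2 CPM, were all below MA12. *Creb5*, *Gsk3b*, *Prkar2a* and *Ncoa2* lost their calls among rats numbered with N, with the kind of number as covariate and with the ribosomal and OXPHOS share as covariate. Over all genes, 185 DEGs were lower and 79 higher in MA24 vs. MA12, and among rats numbered with N 48 were lower and 68 higher. Single rats mattered too. Without rat 14N, *Gsk3b* (log2FC -0.47) and *Ncoa2* (-0.54) fell under the FC limit and *Prkar2a* (-0.51) was lost. *Creb5* (-1.14) and *Gsk3b* (-0.60) were lost without rat 16N. *Prkar2a* was also lost without rat 15N, 21 or 31, and fell just under the FC limit by DESeq2 and with RLE size factors.

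None of 28 tested neuronal CRE target genes was a DEG in MA24 vs. MA12, where 2.45% of all tested genes were. Of the 28 targets, 21 had a negative log2FC, against 51.7% of all tested genes. The targets' median was -0.15, beside -0.02 over all genes. *Pdyn*, which encodes prodynorphin, came close to the FC limit. It stood at 8.82, 8.62, 8.87 and 8.98 log2 CPM in MA12 and 8.48, 8.25, 8.10 and 8.16 in MA24, without overlap (log2FC -0.57, SE 0.11, edgeR adjusted p = 0.00838). In non-addicted rats *Pdyn* was 8.21, 7.83, 8.31 and 8.31 log2 CPM, again below all MA12 rats. In non-addicted vs. MA12, where 0.251% of all tested genes were DEGs, *Pdyn* was the 1 DEG of 29 tested targets (log2FC -0.65, SE 0.12, edgeR adjusted p = 0.0281). This call was lost under 9 of 18 alternatives, among them the fit without the variance filter (edgeR adjusted p = 0.0644), rats numbered without N (log2FC -0.53, edgeR adjusted p = 0.0551) and the fits without rat 11, 12, 21, 4N or 7N (log2FC -0.70 to -0.55).

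In non-addicted vs. MA24, 1 of 29 tested targets was a DEG, against 0.456% of all tested genes. The DEG was *Cartpt*, which encodes the neuropeptide CART, named for its regulation by cocaine and amphetamine. Non-addicted rats had 320, 257, 422 and 55 counts, or 4.07, 3.67, 4.12 and 1.56 log2 CPM, and MA24 rats had 62, 49, 43 and 110 counts, or 1.47, 1.33, 1.20 and 2.56 log2 CPM. Rat 13 lay inside the MA24 range, so the groups overlapped (log2FC 1.92, SE 0.40, edgeR adjusted p = 0.0363). The call was lost under 10 of 16 alternatives, among them DESeq2 (adjusted p = 0.0600) and the fits without rat 11, 12, 9N or 15N (log2FC 1.71 to 1.91). The ependymal markers *Foxj1* and *Rsph1* were also higher DEGs in this comparison, and their 5-gene list summed to 44.1 to 114 CPM in non-addicted and 31.2 to 52.2 CPM in MA24 rats. Endothelial markers *Kdr* and *Cldn5* were lower, with list sums of 288 to 393 CPM in non-addicted, 453 to 503 in MA24 and 389 to 496 in MA12 rats. *Kdr* was also a lower DEG in non-addicted vs. MA12 (log2FC -1.08, SE 0.18, edgeR adjusted p = 0.0128), a call lost without the variance filter (0.0725) and with at least 10 counts in every library (0.0769). Oligodendrocyte and choroid plexus lists held no DEG, but their sums did not overlap. They were 11993 to 16876 CPM in non-addicted and 17352 to 20704 in MA24 rats for oligodendrocytes, and 5.89 to 23.6 and 2.63 to 4.25 CPM for choroid plexus. The 4 ependymal and endothelial calls in non-addicted vs. MA24 were each lost under 8 to 11 of 16 alternatives. In non-addicted vs. MA24 the thalamic and hypothalamic markers held no DEG, and 6 of 6 tested had a positive log2FC. Their median was 0.68, beside 0.003 over all tested genes. Their sums overlapped, at 27.2 to 83.2 CPM in non-addicted and 24.7 to 29.0 CPM in MA24 rats. The part of these cells in the *Cartpt*, *Atf2* and other member values was not tested.

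ATF4 targets of the amino acid and integrated stress response gave 0 DEGs in each comparison, of 23, 23 and 22 tested genes. Over all tested genes, 2.45%, 0.251% and 0.456% were DEGs, so 0 of so few is near that share. The targets' median log2FC was 0.15 in MA24 vs. MA12, 0.06 in non-addicted vs. MA12 and -0.07 in non-addicted vs. MA24. The medians over all tested genes were -0.02, -0.01 and 0.003.

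**Figure D5:**
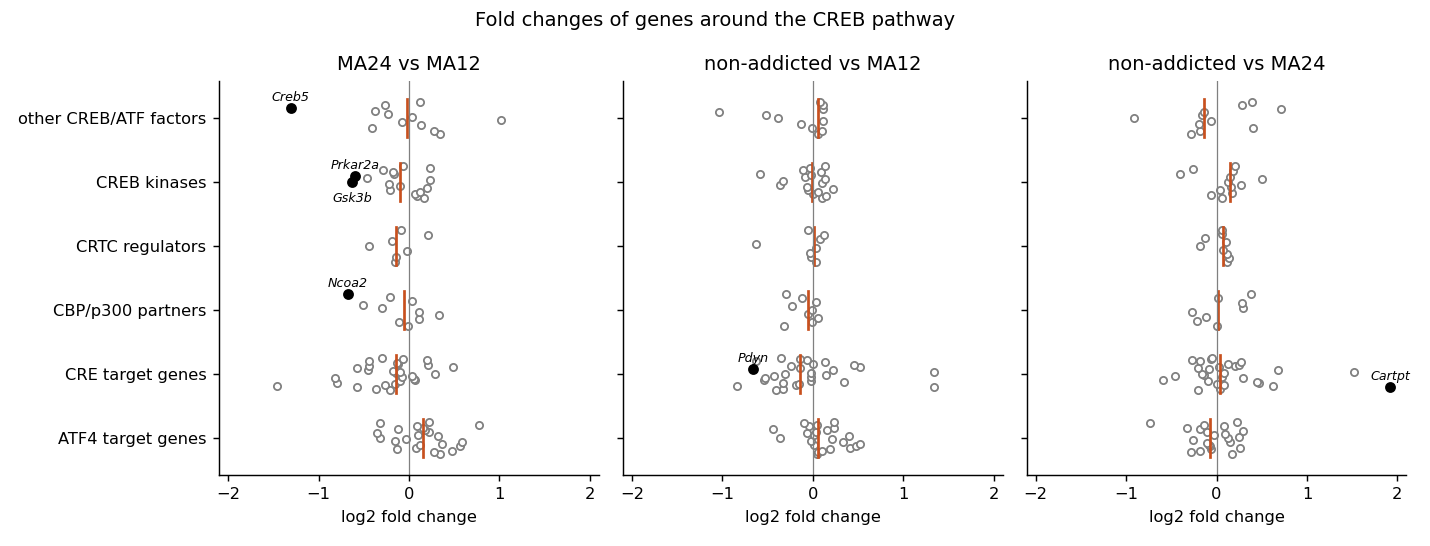
Log2 fold change of each tested gene in 6 lists around the CREB pathway, by comparison. Black named points are DEGs, open points are not, and orange bars are list medians. In MA24 vs. MA12 the 4 named DEGs are negative, as are 185 of the 264 DEGs over all genes. CRE and ATF4 targets hold none there, where 2.45% of all tested genes were DEGs.

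CREB sites in the members' own promoters are shown because *Creb1* and *Crem* encode factors that bind them. RefSeq promoters of the GRCr8 build (250 bases before and 50 from the start on) were found for 7 of the 8 measured genes, with 10 starts in all. The full CRE TGACGTCA and its shorter core TGACG, which every full CRE holds, were searched on both strands. Among all 33469 promoters 1.83% held a full CRE and 21.2% a core. Of the members' 10 promoters, 2 held a full CRE and 6 a core. Both belong to *Crem*, at the downstream 2 of its 3 starts, and the first of them is printed here. The second holds 2 full CREs. Of 23 CRE target genes with a promoter, 7 held a full CRE, among them *Cartpt*. A match describes the letters and does not show binding. Capitals mark the full CRE in *Crem* and *Cartpt* and the cores in *Creb1*, whose window lies at the upstream of its 2 starts.
*Crem*, chr17:58984726-58984763, plus strand: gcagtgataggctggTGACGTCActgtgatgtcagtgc
*Creb1*, chr9:73397414-73397536, plus strand: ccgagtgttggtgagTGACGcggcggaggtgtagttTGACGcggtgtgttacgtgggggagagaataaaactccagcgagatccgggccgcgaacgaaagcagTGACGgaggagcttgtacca
*Cartpt*, chr2:32991355-32991392, minus strand: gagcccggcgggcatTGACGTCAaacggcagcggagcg
With bases before a start counted as negative, the full CRE of *Crem* begins at base -56 and that of *Cartpt*, the target higher in non-addicted than in MA24 rats, at base -142. *Creb1*, the member lower in MA24, has 3 cores and no full CRE in this window. The promoters of *Atf2*, *Crebbp* and *Crtc1* held neither motif, which says no more than that these letters are not in the windows searched.

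Within groups, members did not rise and fall as one. After centring on group means over the 12 rats, the median Pearson r of the 28 pairs was -0.11, with 3 pairs above 0.5 and 5 below -0.5. *Atf1* and *Crtc1* were the most opposed (Pearson r = -0.85, Spearman rho = -0.87, and r = -0.86 without the 2 rats farthest from the median). *Creb1* and *Atf2* went together less firmly (r = 0.56, rho = 0.55), and r fell to 0.21 without 2 rats. All values of a rat come from 1 library, and these correlations are descriptions. Among 10765 genes with a mean count of at least 50, the 3 most like *Creb1* over the 12 rats were *Nt5dc3* (r = 0.96, and 0.93 after centring), *Klhl11* (0.95 and 0.89) and *Tnks* (0.95 and 0.91).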

How the data were processed

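RNA sequencing of striatum from 12 rats gave 1 library per rat. The authors used Cutadapt 1.18 for trimming, STAR 2.7.0e for alignment to the rn6 build and featureCounts for counting per gene. HTSeq 0.12.4 is also named in the submitters' processing notes, without a role. The deposited values are raw counts of 17337 genes, without normalization. Strand and multimapping settings are not given in the sources used here, so counts of overlapping genes and near-identical copies are uncertain. All columns were used. Total counts were 17908962 to 23850284 per rat, and rats of 1 group differed beyond sampling noise (chi-square 8.94 to 25.5 per degree of freedom, 18 pairs).

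Groups came from the sample labels. Every pair of groups was fitted on its 8 libraries alone. Genes needed a mean count above 4, the 15% of lowest log2 CPM variance were dropped, and counts were scaled by TMM and tested with edgeR 4.0.16 (glmQLFit, glmQLFTest, R 4.3.3) with Benjamini-Hochberg adjustment over all tested genes. The filters and thresholds follow the study's methods, read as a mean count and log2 CPM, while the direct test of each pair was chosen here. *Atf4*, which the variance filter removes, is given from the fit without it. Levels are log2 CPM (prior count 2, TMM over 12 libraries) and were compared between rats by exact permutation (two-sided, 24 tests, unadjusted). Levels, promoters and figures were computed in Python 3.11.15 (scipy 1.17.1, matplotlib 3.10.9). The fit was also run on simulated data, and no result given here rests on that run.

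The members and lists were chosen with earlier results of these data known, among them that of *Creb1* in MA24 vs. MA12. Named were all members, list genes that were DEGs in any comparison, and the 3 genes most correlated with *Creb1*. *Pdyn* in MA24 vs. MA12 is named because it was a DEG in another comparison. Of 13 mitochondrially encoded genes none had a row, and haemoglobin genes gave no DEG of 3 tested in any comparison. Projection neuron, astrocyte, oligodendrocyte, microglia, choroid plexus and cortex lists gave no DEG in any comparison. Results were recomputed with DESeq2 1.42.0, with RLE scaling, by likelihood ratio, under 3 further filters, with the third group included, without each rat, by kind of rat number and, added after seeing the data, the ribosomal and OXPHOS share as covariate.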

Additional observations from a re-analysis of the deposited data

Results flagged for a closer look

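In the non-addicted group, the *Crtc1* level of rat 9 (6.30 log2 CPM) lay far below the other 3 rats (6.95 to 6.97), a gap of 0.969 of the group's range, above Dixon's critical value for 4 samples. Of 24 groups of 4 rats examined (8 genes in 3 groups), this was the 1 that stood out, and chance gives about 1.2. The same rat had the lowest *Creb1* (2.57 log2 CPM) and the highest share of ribosomal protein and OXPHOS subunit counts (4.42%) of its group.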

How the results depend on the processing

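The number of members called in MA24 vs. MA12 was 1, and 0 among rats numbered with N, with the kind of number as covariate and with the ribosomal and OXPHOS share as covariate. Without 1 rat each it was 0 to 1. In both comparisons with non-addicted rats it was 0 under every alternative run. The number of members at p = 0.0286 in the exact permutation test was also counted without 1 rat each. It was 1 to 4 in MA24 vs. MA12 (3 with all rats) and 0 to 2 in non-addicted vs. MA12 (1 with all rats). In non-addicted vs. MA24 it was 1 to 2 (1 with all rats). Without any 1 MA12 rat, MA24 vs. MA12 gave exact permutation p = 0.0571 for *Creb1* and 0.0857 for *Crtc2*. Their groups still did not overlap, so with 1 rat fewer this test can miss 0.0286 in groups that stay apart. *Atf1* in MA24 vs. MA12 turned to 0.065 (log2FC) among rats numbered with N and to 0.050 with the kind of number as covariate. With the ribosomal and OXPHOS share as covariate, *Crtc1* turned to 0.058 in MA24 vs. MA12 and to -0.25 in non-addicted vs. MA24. Leaving out 1 rat each turned the sign of differences near 0. In MA24 vs. MA12, the log2FC ranged from -0.154 to 0.030 for *Atf1* and from -0.197 to 0.060 for *Crtc1*, and the level difference from -0.164 to 0.040 and from -0.207 to 0.066. In non-addicted vs. MA12, the log2FC ranged from -0.161 to 0.028 for *Atf1* and from -0.121 to 0.097 for *Crtc1*, and the level difference from -0.153 to 0.025, from -0.134 to 0.107 and, for *Atf4*, from -0.024 to 0.020. In non-addicted vs. MA24, the log2FC ranged from -0.103 to 0.087 for *Atf1*, from -0.045 to 0.110 for *Crebbp* and from -0.113 to 0.161 for *Crtc1*, and the level difference from -0.086 to 0.091, from -0.036 to 0.116 and from -0.124 to 0.198. The cause was not tested. Of 632 recomputed values of single members, 571 kept their direction and side of the threshold. Most of them had not passed with all rats either, so this count says little about the *Creb1* call. A fit passes only with the FC limit, so *Atf2* counts as kept where its adjusted p rose above 0.05. The *Creb1* call in MA24 vs. MA12 was lost under 6 of 18 alternatives. With 72 to 168 counts, *Creb1* in MA24 was the member measured with the fewest reads. No paired analysis was possible because the rat numbers name animals and are not shared between groups. Kind of number and group cannot be told apart in non-addicted vs. MA24.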
